A study of Mus musculus with 12 samples.

Results

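A group of 10 genes was followed across CD4+ T cells sorted from mouse Peyer's patches, lymphoid tissue in the gut wall. The genes encode proteins that switch the small GTPases Ras and Rap1 on or off, or Rap1 itself. They were the exchange factor genes Rasgrp1, Rasgrp2, Rasgrp4, Sos1 and Sos2, the genes Rasa1, Rasa2 and Rasa3 for GTPase activating proteins, and the GTPase genes Rap1a and Rap1b. These 10 were taken by symbol from the 19937 genes that had a probe set annotated to 1 symbol alone, and each had 1 probe set. The group was chosen by the array values of Rasgrp2 and Rasa3, which had some of the lowest differences between T follicular helper (Tfh) and PD1- cells, so for these 2 genes every comparison of Tfh with PD1- cells is a description without a test.

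RNA was measured on 12 Affymetrix mouse gene arrays, 3 for each of 4 sorted groups. All mice were IL-21eGFP transgenics, with green fluorescent protein (GFP) placed on a bacterial artificial chromosome to report Il21, the gene for a cytokine that T cells supply to B cells. The groups were GFP+ Tfh (GFP+CXCR5+PD1+), GFP- Tfh (GFP-CXCR5+PD1+), GFP- cells that were CXCR5+PD1- and GFP- cells that were CXCR5-PD1-, all CD4+ and negative for Epcam and class II. The labels give no treatment, strain background or age. Whether replicates were different animals is not stated, though the sex of the arrays, given below, separates some of them. The p-values reflect only variation among these samples, part of which may be technical. Every array carries the label of Tfh as its cell type, and the characteristics of the GFP+ arrays contradict their titles on CXCR5 and PD1, so the groups follow the titles.

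Ras and Rap1 are switches that are on when they hold GTP. Exchange factors load the GTP, and GTPase activating proteins speed its removal. In T cells the antigen receptor makes diacylglycerol, which recruits RasGRP1 to activate Ras and the Raf, MEK and ERK kinases, while SOS is brought to Ras by the adaptor GRB2. Rap1 acts on integrins, and through them on adhesion and migration.

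Values are log2 expression after RMA, a normalisation that makes arrays alike, and differences are on the same log2 scale, given ± SE from limma with p-values adjusted over 11240 genes tested. A gene was called at an adjusted p under 0.05. All 10 genes passed the filter on low values, which asked for a level above the array median on at least 3 arrays. The T cell label held: the 7 measured of 8 CD4 T cell markers averaged 4.38 to 4.82 above the array median in every group. The sort markers Il21, Cxcr5, Pdcd1 and Bcl6 averaged 2.99 to 3.52 above it in GFP+ Tfh and 2.47 to 3.17 in GFP- Tfh, against 0.01 to 0.74 in CXCR5+PD1- and 0.10 to 0.70 in CXCR5-PD1- cells. Between GFP+ and GFP- Tfh 0 of these 4 were called, so Il21, which GFP reports, was not, where 0.0445% of all genes were. The median difference of the 4 was 0.45, beside -0.02 over all genes. A missing call does not show equal levels. The transcript of Cxcr5 itself stood at 5.61 in CXCR5+PD1- and 5.71 in CXCR5-PD1- cells. The GFP+ arrays varied most, deviating from their group's mean by 0.237 to 0.333 (root mean square over genes), against 0.144 to 0.180 on the other 9 arrays. Replicate 3 of each group was female and replicates 1 and 2 were male by Xist, at 10.65 to 11.25 against 4.87 to 5.49. Replicate 3 thus came from other mice than replicates 1 and 2. Whether replicates 1 and 2 came from different mice is not stated.

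The start regions of Rasgrp2 and Rasa3 are shown because these 2 genes had the lowest differences of the 10 between Tfh and PD1- cells. Each is the 250 bases before an annotated start (RefSeq, GRCm38.p6), written along the strand of the gene. Rasgrp2 has 2 such regions here, called first and second by position. Its annotated gene span begins upstream of both, at chr19:6398957. The first of Rasgrp2 is chr19:6399625-6399874 on the plus strand, the second is chr19:6401455-6401704 on the plus strand, and that of Rasa3 is chr8:13677588-13677837 on the minus strand. Capitals mark matches on either strand to 4 motifs: the KLF box CACCC, the forkhead core GTAAACA, the ETS core CCGGAAG and the E-box CAGCTG.
Rasgrp2, first start: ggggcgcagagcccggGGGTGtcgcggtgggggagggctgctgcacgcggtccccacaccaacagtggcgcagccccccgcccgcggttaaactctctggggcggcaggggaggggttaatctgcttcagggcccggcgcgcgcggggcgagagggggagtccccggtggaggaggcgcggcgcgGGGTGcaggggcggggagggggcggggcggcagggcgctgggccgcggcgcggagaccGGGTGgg
Rasgrp2, second start: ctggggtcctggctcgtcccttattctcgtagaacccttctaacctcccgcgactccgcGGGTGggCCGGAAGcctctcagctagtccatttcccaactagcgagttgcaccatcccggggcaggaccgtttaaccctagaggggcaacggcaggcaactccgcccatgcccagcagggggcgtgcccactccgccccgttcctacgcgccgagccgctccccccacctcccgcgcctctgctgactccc
Rasa3: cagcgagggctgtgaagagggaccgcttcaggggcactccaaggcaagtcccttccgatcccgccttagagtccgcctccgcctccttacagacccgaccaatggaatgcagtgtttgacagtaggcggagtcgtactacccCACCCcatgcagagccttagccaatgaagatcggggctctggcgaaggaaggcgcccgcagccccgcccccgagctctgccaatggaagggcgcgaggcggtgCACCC
The KLF box occurred 3 times before the first start of Rasgrp2, 1 time before its second and 2 times before Rasa3. The ETS core occurred only before the second start of Rasgrp2 among these 3 regions, and the forkhead core and E-box in none of them. KLF boxes were present in 52.0% of 32851 regions of this length, ETS cores in 6.91%, forkhead cores in 3.17% and E-boxes in 13.0%. Of the 8 members with a start region in the table, 6 held a KLF box: Rasgrp1, Rasa1, Sos1 and Sos2 besides the 2 above. A match in letters is not a binding site.

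**Figure D1:**
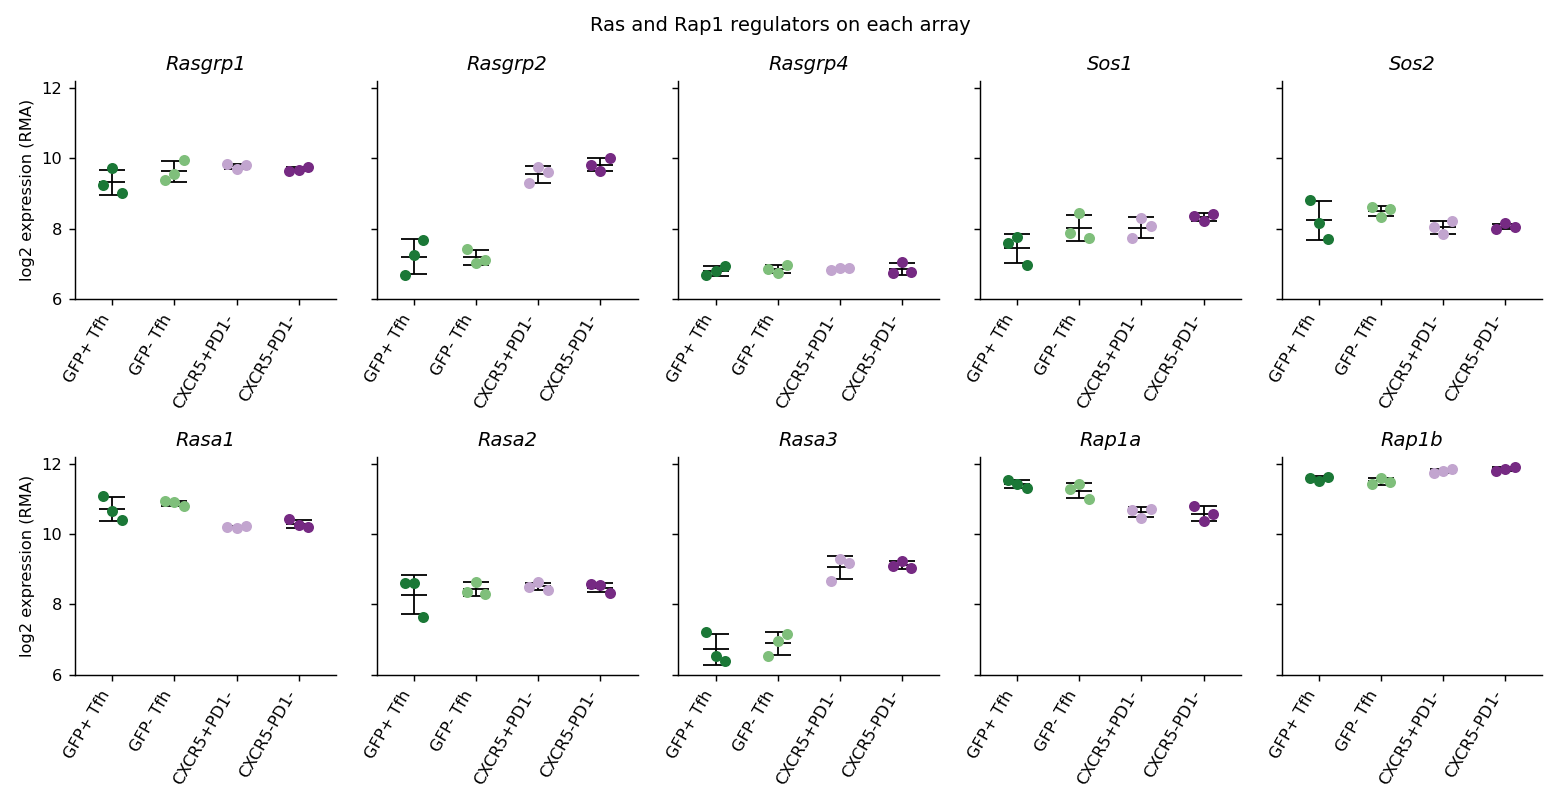
Log2 expression (vertical axis) of the 10 genes in the 4 sorted groups (horizontal axis); each point is 1 array, with replicates 1 to 3 from left to right, and bars give the mean ± SD of 3 arrays. Rasgrp2 and Rasa3 lie lower on all 6 Tfh arrays than on any PD1- array, and Rap1a lies higher.

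Rasgrp2 encodes CalDAG-GEFI, a calcium-sensitive exchange factor that acts on Rap1 and is best known from platelets. It stood at 6.69, 7.24 and 7.68 on the GFP+ Tfh arrays and at 7.43, 7.03 and 7.10 on the GFP- Tfh arrays. On the CXCR5+PD1- arrays it stood at 9.29, 9.76 and 9.61, and on the CXCR5-PD1- arrays at 9.81, 9.63 and 10.01. The 6 Tfh arrays and the 6 PD1- arrays did not overlap. Averaged over gates, the level was 7.19 ± 0.34 in Tfh and 9.69 ± 0.24 in PD1- cells (SD over 6 arrays each, with replicate numbers shared between gates). That is a log2 difference of -2.49 ± 0.16 or a level 5.62 times lower in Tfh. Of the 11240 genes, 7 had a lower difference. Within the Tfh arrays the gates overlapped, and so did the PD1- gates.

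Rasgrp1, the main diacylglycerol-driven Ras exchange factor of T cells, showed no such separation. It stood at 9.23, 9.72 and 9.01 in GFP+ Tfh, 9.38, 9.57 and 9.95 in GFP- Tfh, against 9.84, 9.70 and 9.80 in CXCR5+PD1- and 9.65, 9.67 and 9.76 in CXCR5-PD1- cells. Tfh and PD1- arrays overlapped, and the difference of -0.26 ± 0.13 did not pass (limma adjusted p = 0.284), with a 95% interval of -0.54 to 0.02. Rasgrp4, an exchange factor gene known from mast cells, lay just above the array median of 6.34 to 6.45 throughout, at 6.67 to 6.98 on the Tfh arrays and 6.74 to 7.04 on the PD1- arrays. Its difference was -0.03 ± 0.09 (limma adjusted p = 0.918), with an interval of -0.22 to 0.16.

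SOS1 and SOS2 are the exchange factors that work through GRB2. Sos1 stood at 7.59, 7.76 and 6.96 in GFP+ Tfh, 7.88, 8.44 and 7.73 in GFP- Tfh, 7.73, 8.30 and 8.08 in CXCR5+PD1- and 8.37, 8.21 and 8.43 in CXCR5-PD1- cells. Every GFP+ array was below every CXCR5-PD1- array, while GFP- Tfh and CXCR5+PD1- cells overlapped both. Sos1 fell by 0.90 ± 0.24 in GFP+ Tfh against CXCR5-PD1- cells (limma adjusted p = 0.0455). That call ended without GFP+ replicate 3 (-0.66, adjusted p = 0.0969) and without CXCR5-PD1- replicates 1, 2 or 3 (adjusted p = 0.122, 0.0882 and 0.143). It also ended with 1 weight per group (adjusted p = 0.154), with no filter (0.0646) and with the 2 groups alone (0.113).

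Averaged over gates, Sos1 differed by -0.46 ± 0.17 (limma adjusted p = 0.119) and Sos2 by 0.32 ± 0.16 (adjusted p = 0.284). Sos2 stood at 8.82, 8.17 and 7.72 in GFP+ Tfh and 8.62, 8.34 and 8.55 in GFP- Tfh, against 7.86 to 8.23 on the 6 PD1- arrays. All 3 GFP- Tfh arrays were above the PD1- arrays, and the GFP+ arrays spread across them. Without GFP+ replicate 3 the averaged difference of Sos2 was 0.45 and passed (adjusted p = 0.0362). That array was the lowest of all 12 for Rasgrp1, Rasa2, Rasa3, Sos1 and Sos2, 5 of the 10 genes, and for 22.6% of all genes tested. It was also the highest of all 12 for 20.6% of all genes tested, and for 0 of the 10.

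Rasa3 encodes a membrane-bound GTPase activating protein for Ras and Rap1. It stood at 7.22, 6.54 and 6.40 on the GFP+ Tfh arrays and at 6.54, 6.96 and 7.16 on the GFP- Tfh arrays. The CXCR5+PD1- arrays gave 8.68, 9.30 and 9.19 and the CXCR5-PD1- arrays 9.08, 9.24 and 9.04. As with Rasgrp2, all Tfh arrays lay below all PD1- arrays and the gates within each pair overlapped. The averages were 6.80 ± 0.36 in Tfh and 9.09 ± 0.22 in PD1- cells (SD over 6 arrays each, with replicate numbers shared between gates). That is a difference of -2.29 ± 0.17 or a level 4.88 times lower in Tfh. Of the genes tested, 15 had a lower difference. The Tfh values of Rasa3, from 6.40, touch the array median, where RMA compresses differences. In bulk RNA, fewer cells with a transcript and less of it per cell cannot be told apart.

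The other GTPase activating protein genes went differently. Rasa1, for p120 RasGAP, stood at 11.08, 10.66 and 10.41 in GFP+ Tfh and 10.93, 10.91 and 10.80 in GFP- Tfh, against 10.21, 10.17 and 10.23 in CXCR5+PD1- and 10.42, 10.25 and 10.20 in CXCR5-PD1- cells. The lowest Tfh array lay within the PD1- range and the other 5 above it. Rasa1 rose by 0.55 ± 0.11 in Tfh (limma adjusted p = 0.00631), and the call held in all 19 alternatives, with differences of 0.46 to 0.63. Rasa2, which restrains Ras in human T cells, lay at 7.63 to 8.65 on the Tfh arrays and 8.33 to 8.63 on the PD1- arrays. Its difference was -0.14 ± 0.16 (adjusted p = 0.736), with an interval of -0.49 to 0.21.

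Rap1a and Rap1b encode 2 closely related forms of the Rap1 GTPase, and they moved in opposite directions. Rap1a stood at 11.54, 11.43 and 11.30 in GFP+ Tfh and 11.29, 11.43 and 11.01 in GFP- Tfh, against 10.70, 10.47 and 10.71 in CXCR5+PD1- and 10.80, 10.38 and 10.56 in CXCR5-PD1- cells. All 6 Tfh arrays were above all 6 PD1- arrays, and Rap1a rose by 0.73 ± 0.10 (limma adjusted p = 0.000846), a level 1.66 times higher, called in all 19 alternatives. Rap1b stood at 11.61, 11.52 and 11.63 in GFP+ Tfh and 11.43, 11.60 and 11.47 in GFP- Tfh, against 11.74, 11.81 and 11.86 in CXCR5+PD1- and 11.80, 11.86 and 11.92 in CXCR5-PD1- cells. All 6 Tfh arrays were below the PD1- arrays, by a small step: Rap1b fell by 0.29 ± 0.07 (adjusted p = 0.0228). The call of Rap1b ended without GFP- Tfh replicate 1 (adjusted p = 0.0654), CXCR5+PD1- replicate 2 (0.0600) or 3 (0.0659), or CXCR5-PD1- replicate 2 (0.0510) or 3 (0.0621), with differences of -0.29 to -0.27. How far the probes tell these similar transcripts apart was not tested.

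**Figure D2:**
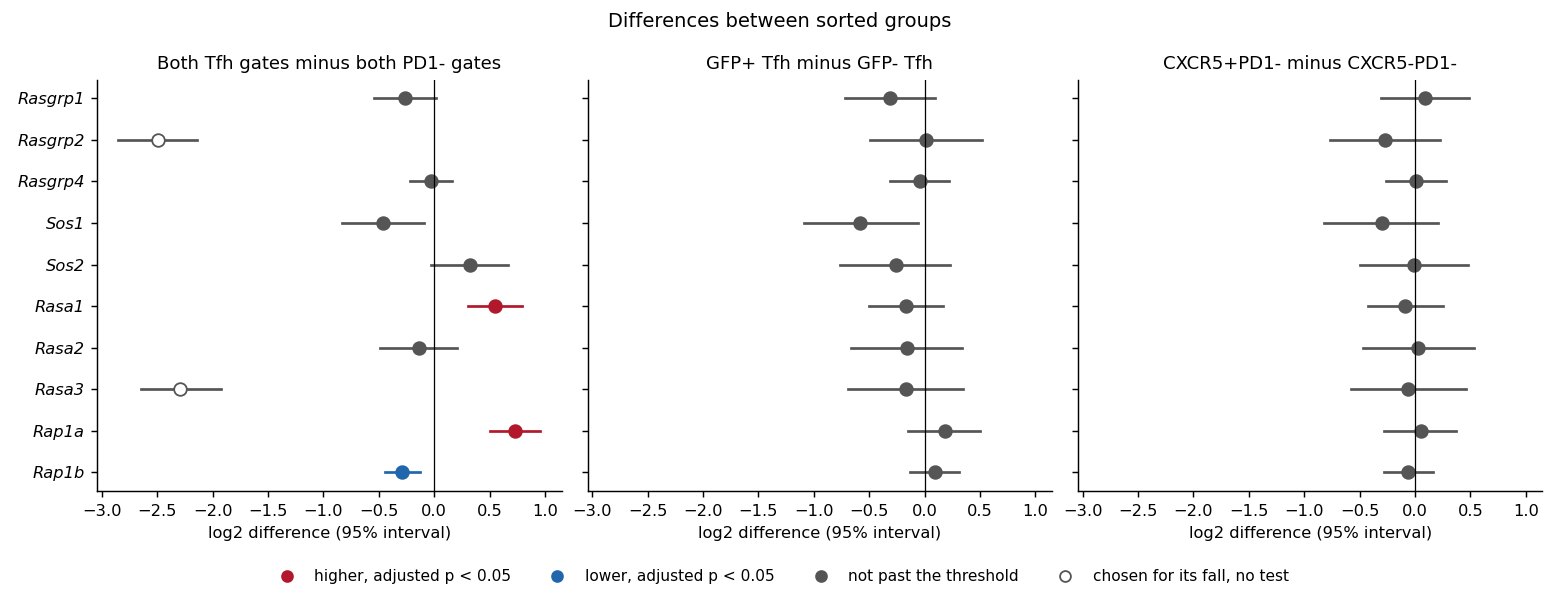
Log2 differences with 95% intervals (horizontal axis) for the 10 genes (vertical axis) in 3 comparisons. Red and blue points passed an adjusted p of 0.05, grey points did not, and the open points of Rasgrp2 and Rasa3, chosen for these differences, have no test; between the Tfh gates and between the PD1- gates 0 of 10 genes passed.

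Of the 8 genes other than Rasgrp2 and Rasa3, 2 rose, 1 fell and 5 did not pass between both Tfh and both PD1- gates, where 10.4% of all genes tested were called, 5.05% higher and 5.33% lower. The arrays did not overlap for 2 of the 8, Rap1a and Rap1b, as for 7.56% of all genes. Their median difference was -0.08, beside -0.02 over all genes. Against CXCR5-PD1- cells alone, GFP- Tfh had 1 of the 8 higher, beside 3.82% called of all genes (2.22% higher and 1.6% lower), and GFP+ Tfh had 1 higher and 1 lower, beside 6.2% (2.45% higher and 3.75% lower). Arrays did not overlap for 4 of the 8 in GFP- Tfh, Rasa1, Rap1a, Rap1b and Sos2, as for 21.6% of all genes, and for 3 in GFP+ Tfh, Rap1a, Rap1b and Sos1, as for 18.8%. These 2 comparisons share their CXCR5-PD1- arrays. The higher gene in both was Rap1a, at 0.66 ± 0.15 in GFP- Tfh (limma adjusted p = 0.0287) and 0.84 ± 0.15 in GFP+ Tfh (adjusted p = 0.00580), and the lower one was Sos1. In GFP- Tfh the call of Rap1a ended without GFP- replicates 1 or 2 (adjusted p = 0.104 and 0.134) or CXCR5-PD1- replicates 2 or 3 (0.125 and 0.105). Rasa1 differed by 0.59 ± 0.15 in GFP- Tfh (adjusted p = 0.0589), where it passed in 5 of 14 alternatives (lowest adjusted p 0.0067), and by 0.42 ± 0.15 in GFP+ Tfh (adjusted p = 0.148), where it passed in 2 of 14 (lowest 0.0246).

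The stated aim of the series was the comparison of GFP+ with GFP- Tfh. In it 0 of the 10 genes passed in limma, where 5 of all genes or 0.0445% did, and 1 of the 10, Sos1, had an unadjusted p under 0.05, as had 7.37% of all genes. The count over all genes was 237 without GFP+ replicate 1 and 0 with the 2 groups alone, while that of the 10 genes was 0 in all 14 alternatives. Sos1 differed by -0.58 ± 0.24 (adjusted p = 0.618), and its GFP+ arrays, at 6.96 to 7.76, overlapped the GFP- arrays at 7.73 to 8.44. Rasgrp2 differed by 0.01 ± 0.23, with a 95% interval of -0.49 to 0.52, and Rasa3 by -0.17 ± 0.24, with an interval of -0.69 to 0.35. Both intervals lie within 1 log2 unit of 0. These genes differed by more than 2 between Tfh and PD1- cells, but they were chosen for that difference. Rasgrp1 differed by -0.31 ± 0.18, Rap1a by 0.18 ± 0.15 and Rap1b by 0.09 ± 0.10. In no member were the GFP+ and GFP- arrays separate, as 8.74% of all genes were.

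Between CXCR5+PD1- and CXCR5-PD1- cells 0 of the 10 genes passed in limma and 0 had an unadjusted p under 0.05, where 0.0% of all genes passed and 1.22% had such a p. Rasgrp2 differed by -0.27 ± 0.23 (interval -0.77 to 0.23) and Rasa3 by -0.06 ± 0.24 (interval -0.58 to 0.46). Sos1 differed by -0.30 ± 0.24 (interval -0.82 to 0.21), and the other 7 genes by -0.09 to 0.09. The group means of Rasgrp2 were thus 7.20 in GFP+ and 7.19 in GFP- Tfh, against 9.55 in CXCR5+PD1- and 9.82 in CXCR5-PD1- cells. Its arrays were separate only at the step between Tfh and PD1- gates, for which the gene was chosen. The group means of Rasa3 were 6.72, 6.89, 9.06 and 9.12 in the same groups, with arrays again separate only at that step, for which it too was chosen.

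The difference was also taken within each replicate number, which sets apart the female arrays of replicate 3. The Tfh mean minus the PD1- mean of Rasgrp2 was -2.49, -2.56 and -2.42 within replicate numbers 1, 2 and 3, and that of Rasa3 was -2.0, -2.52 and -2.33. Rap1a gave 0.66, 1.0 and 0.52, Rap1b -0.25, -0.28 and -0.33, and Rasa1 0.69, 0.57 and 0.39. Sos1 gave -0.31, -0.15 and -0.91, and Rasgrp1 -0.44, -0.04 and -0.30. These 7 genes, of which Rasgrp2 and Rasa3 were chosen for this difference, had 1 sign in all 3 numbers. The share of all genes that do so was not computed, so this count is a description. Rasgrp1 and Sos1 did not pass when averaged over gates. The signs were mixed for Rasa2, at -0.05, 0.04 and -0.41, and for Rasgrp4, at -0.03, -0.20 and 0.14. Sos2 gave 0.71, 0.25 and 0.00, the last being no difference at this rounding.

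**Figure D3:**
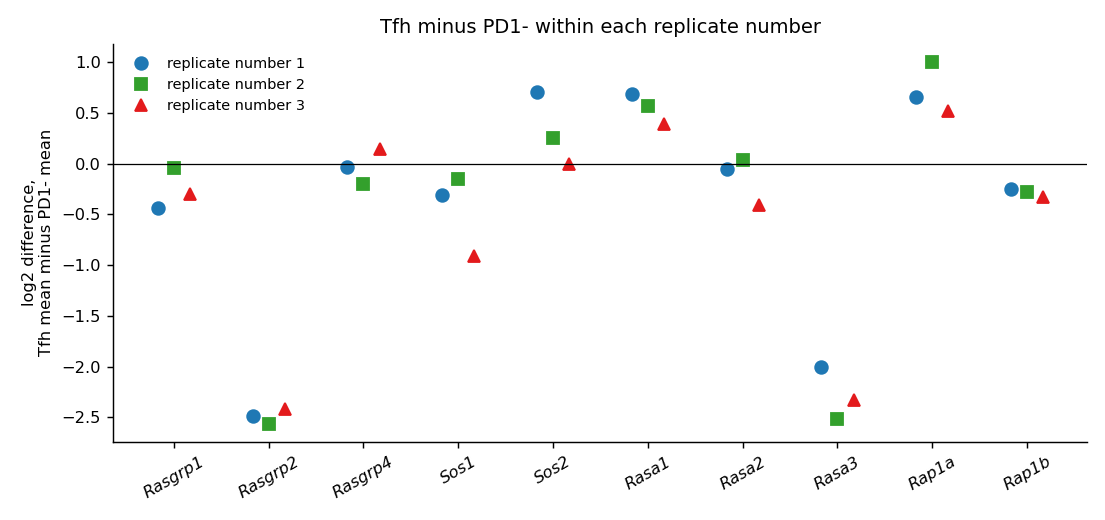
Mean of the 2 Tfh arrays minus mean of the 2 PD1- arrays, in log2 units (vertical axis), for each gene (horizontal axis) within replicate numbers 1, 2 and 3 (circle, square, triangle). Rasgrp2 and Rasa3 lie between -2.56 and -2.0 in every replicate number, Rap1a and Rasa1 lie above 0 and Rap1b below 0.

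The genes most like Rasgrp2 and Rasa3 were found by the root mean square difference of log2 values over the 12 arrays, after each gene was centred on its own mean. Both genes were chosen for low values in Tfh on these same arrays, so their likeness to each other, and low Tfh values in the genes nearest to them, follow from how they were picked and are given as a description. For Rasgrp2 the nearest 5 of the genes tested were Dapl1 (0.265), the membrane protein gene Emp3 (0.401), the lymph node homing receptor Ccr7 (0.406), the egress receptor S1pr1 (0.429) and Klhdc1 (0.434). Rasa3 came 8th at 0.472, where the median over all genes was 1.281. For Rasa3 the nearest were the Tec family kinase gene Txk (0.275), Crybg1 (0.281), the interleukin 4 receptor gene Il4ra (0.320), the interferon gamma receptor gene Ifngr2 (0.329) and Sidt1 (0.339), and Rasgrp2 came 23rd. Dapl1 averaged 6.11 in GFP+ and 5.87 in GFP- Tfh, against 8.44 in CXCR5+PD1- and 8.43 in CXCR5-PD1- cells, and Txk 7.62 and 8.32, against 10.11 and 10.21.

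A wider list of 95 genes around Ras and Rap1 had 85 on the array and 70 tested. Between both Tfh and both PD1- gates 7 rose and 9 fell, 16 of 70, where 5.05% of all genes were called higher and 5.33% lower. The median difference of the list was -0.06, beside -0.02 over all genes. Diacylglycerol kinases, which remove the lipid that recruits RasGRP1, had 1 of 6 tested members higher and 3 lower, beside 10.4% of all genes called in either direction. Dgka fell by 0.69 ± 0.08, to 10.99 in GFP+ and 11.21 in GFP- Tfh, against 11.82 in CXCR5+PD1- and 11.76 in CXCR5-PD1- cells (limma adjusted p = 0.000159). Dgkd fell by 0.51 ± 0.12 and Dgke by 0.86 ± 0.19 (adjusted p = 0.0182 and 0.0121). Dgkz, the other main diacylglycerol kinase of T cells, rose by 0.86 ± 0.11 (adjusted p = 0.000269), to 8.66 in GFP+ and 8.78 in GFP- Tfh, against 7.95 in CXCR5+PD1- and 7.75 in CXCR5-PD1- cells.

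Upstream adaptors had 2 of 12 higher and 3 lower, beside 5.05% and 5.33% of all genes. Ptpn11, the phosphatase SHP2, rose by 1.49 ± 0.18 (limma adjusted p = 0.000247) and Plcg1, the enzyme that makes diacylglycerol, by 0.44 ± 0.13 (adjusted p = 0.0499). Grap2, the adaptor GADS, fell by 1.49 ± 0.25, its relative Grap by 0.65 ± 0.10 and the inhibitory adaptor Dok2 by 0.45 ± 0.09 (adjusted p = 0.00248, 0.00121 and 0.00904). Lat and Grb2 differed by 0.04 ± 0.09 and -0.13 ± 0.10 and did not pass. Among 8 other Ras family GTPases, Rras2 fell by 1.88 ± 0.27 (adjusted p = 0.000864), to 8.66 in GFP+ and 8.53 in GFP- Tfh, against 10.32 in CXCR5+PD1- and 10.62 in CXCR5-PD1- cells, Rap2a rose by 0.48 ± 0.11 (adjusted p = 0.0205) and Nras differed by -0.11 ± 0.09.

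The counts in the remaining lists stand beside 5.05% of all genes called higher and 5.33% called lower in the same comparison. Of 7 other exchange factors 1 fell, Rapgef6, a Rap exchange factor, by 0.76 ± 0.11 (limma adjusted p = 0.00103). Of 9 other GTPase activating proteins, Nf1, the neurofibromin gene, rose by 0.52 ± 0.15 (adjusted p = 0.0435) and Sipa1l1 fell by 0.30 ± 0.08 (adjusted p = 0.0333). Among 7 kinases and scaffolds Ksr1, a scaffold of Raf and MEK, rose by 0.41 ± 0.08 (adjusted p = 0.00835). Of 9 feedback brakes 0 passed in limma, with Dusp5 at -0.40 ± 0.13 (adjusted p = 0.0800) and Spred2 at -0.59 ± 0.31. Of 12 Rap1 effectors and integrin regulators 1 rose, the integrin chain gene Itgal, whose protein in LFA-1 is a target of Rap1, by 1.21 ± 0.13 (adjusted p = 0.000103). Itgb2, its partner chain, differed by 0.04 ± 0.09, Apbb1ip, the Rap1 effector RIAM, by -0.25 ± 0.09 and Tln1 by 0.07 ± 0.08.

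Of the 16 calls, 12 held in every alternative run. Rap2a was lost without CXCR5+PD1- replicate 1 or CXCR5-PD1- replicate 2 (highest adjusted p 0.0544). Nf1 was lost with no filter and without any 1 of 8 arrays, GFP- Tfh replicates 1, 2 or 3, CXCR5+PD1- replicates 1, 2 or 3 or CXCR5-PD1- replicates 1 or 3 (highest adjusted p 0.108). Sipa1l1 was lost with 1 weight per group, with trend and robust moderation, with the replicate number as a block and without any 1 of 7 arrays, GFP- Tfh replicates 1, 2 or 3, CXCR5+PD1- replicates 2 or 3 or CXCR5-PD1- replicates 2 or 3 (highest adjusted p 0.0913). Plcg1 was lost with no filter, with trend and robust moderation and without any 1 of 11 arrays, all but GFP+ Tfh replicate 2 (highest adjusted p 0.124).

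**Figure D4:**
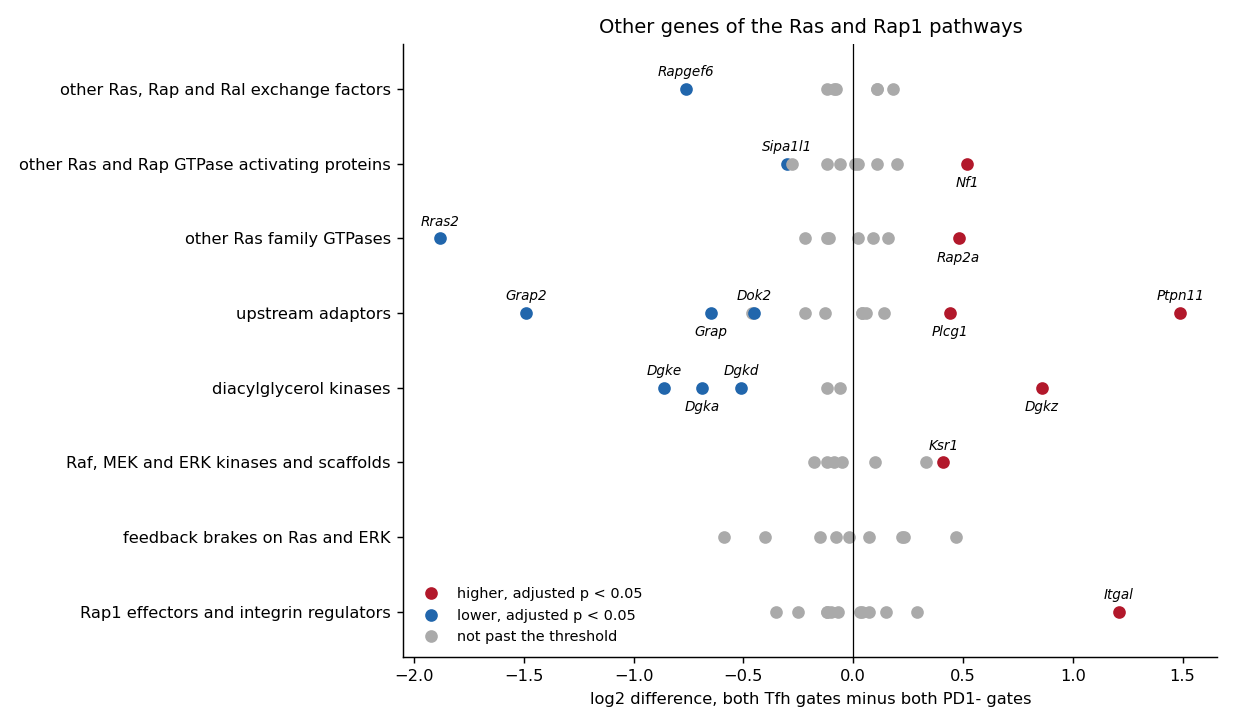
Log2 difference of both Tfh gates over both PD1- gates (horizontal axis) for 70 tested genes around Ras and Rap1, by list (vertical axis). Red points rose and blue points fell at an adjusted p under 0.05, and these are named; Rras2 and Grap2 lie at -1.88 and -1.49 and Ptpn11 and Itgal at 1.49 and 1.21.

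Markers of other cells were set beside these results. Markers of naive and recirculating T cells were lower in Tfh than in PD1- cells, the step for which Rasgrp2 and Rasa3 were chosen. The 5 measured of 7 averaged 1.99 to 2.06 above the array median in GFP+ Tfh and 2.55 to 2.81 in GFP- Tfh. In CXCR5+PD1- cells they averaged 3.93 to 4.36 and in CXCR5-PD1- cells 4.10 to 4.40. This average was thus also separate between the Tfh gates, where the arrays of Rasgrp2 and of Rasa3 overlapped. Between those gates 0 of the 5 were called, beside 0.0445% of all genes. Between both Tfh and both PD1- gates all 5 fell, where 5.33% of all genes were called lower. Klf2, a factor of quiescent T cells, fell by 0.66 ± 0.10 (limma adjusted p = 0.00132). Ccr7 and S1pr1 are in this list and were also among the genes nearest to Rasgrp2, so this is in part the same observation. Platelet markers, 6 of 8 measured, averaged -0.31 to 0.03 in GFP+ Tfh and -0.28 to -0.16 in GFP- Tfh, against -0.12 to 0.08 and -0.10 to 0.02 in CXCR5+PD1- and CXCR5-PD1- cells. Of these Itgb3 fell by 0.91 ± 0.19 (adjusted p = 0.0101), while the defining Pf4 stood at 4.47 to 4.59 and Ppbp at 4.70 to 4.96 in the 4 groups, below the filter. CD8 and NK cell markers, all 8 measured, averaged -0.64 to -0.56 and -0.54 to -0.50 in GFP+ and GFP- Tfh, against -0.38 to -0.24 and -0.27 to 0.06 in CXCR5+PD1- and CXCR5-PD1- cells. Of the 5 tested, Prf1 fell by 0.62 ± 0.12 and Cd8b1 by 0.46 ± 0.13 (adjusted p = 0.00535 and 0.0478). Mast cell markers, all 8 measured, averaged -0.78 to -0.67 and -0.90 to -0.84 in GFP+ and GFP- Tfh, against -0.99 to -0.92 and -1.01 to -0.94 in CXCR5+PD1- and CXCR5-PD1- cells. In this list Kit rose by 0.86 ± 0.13 (adjusted p = 0.00132), and Cpa3, Fcer1a, Ms4a2, Mcpt4, Cma1 and Tpsb2 did not pass the filter. B cell, myeloid and epithelial markers averaged -0.92 to -0.24 over all 12 arrays, with overlap between Tfh and PD1- arrays. Of the 3 B cell markers tested Pax5 rose by 0.30 ± 0.07 (limma adjusted p = 0.0193), and none of the 4 myeloid and 2 epithelial markers tested passed in limma. The part of other cells in the results was not tested.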

How the data were processed

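Gene expression was measured on 12 arrays in 4 sorted groups of 3. The authors deposited log2 values of 34760 probe sets, and the submitters' processing notes name RMA and the oligo package. RMA corrects background, equalises the arrays and summarises probes on a log scale, which compresses low signals and removes a shift of most genes at once. The build behind the authors' values is not stated. Array medians were 6.34 to 6.45. Precision is limited by having 3 arrays per group. All columns were mapped to samples.

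Gene symbols came from the annotation of the platform and were brought up to date by gene identifier (RefSeq, GRCm38.p6). Of them 21640 had 1 symbol, 1321 had several and 11799 were unnamed here. For the 954 genes with several probe sets, that with the highest mean was used. Genes above the array median on at least 3 arrays were tested, 11240 of 19937.

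All 12 arrays entered 1 fit with 8 residual degrees of freedom (lmFit and eBayes of limma 3.58.1, R 4.3.3), from which 5 comparisons were taken. P-values were adjusted by Benjamini-Hochberg over all tested genes, and calls made at 0.05. The code was tested on simulated data. Members, lists and tests were chosen with earlier results of these data known. Named are all members, called genes of the wider lists or up to 4 with the smallest p, further pathway genes chosen after their values were seen (Lat, Grb2, Nras, Spred2, Itgb2, Tln1, Apbb1ip), and the 5 genes nearest to Rasgrp2 and to Rasa3, leaving out predicted genes, small RNAs and receptor segments.

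Same-numbered arrays deviated together for CXCR5+PD1- and CXCR5-PD1- cells (correlations of 0.210 to 0.353), but in every other pair of groups at least 1 correlation lay under 0.1. What a replicate number marks is not stated, though arrays of the same number shared a sex by Xist. Alternatives changed the filter, weights, moderation, normalisation, groups in the fit, probe set rule and a replicate block, or dropped 1 replicate at a time. Each member had 1 probe set, so the filter and the probe set rule left its values unchanged. They could change only its SE and p-values. The reference tables used held no protein sequences, and none are printed.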

Additional observations from a re-analysis of the deposited data

How the results depend on the processing

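In the averaged comparison of Tfh with PD1- cells, 1039 to 1247 genes and 3 of the 8 tested members were called in every alternative that kept all arrays, against 1167 genes and 3 members as reported, and 883 to 1495 genes and 2 to 4 members on leaving out each replicate. Genes called for GFP+ over GFP- Tfh, 5 as reported, were 0 with the 2 groups alone, 3 with 1 weight per group and 3 to 237 on leaving out each replicate (237 without GFP+ replicate 1), and members called were 0 throughout. For GFP- Tfh over CXCR5-PD1- cells, genes called were 429 as reported, 665 with the 2 groups alone, 791 with 1 weight per group and 228 to 326 without a replicate. The members called there were 1 as reported, 3 with 1 weight per group and with trend and robust moderation, 2 with cyclic loess, with the 2 groups alone and with the replicate block, and 0 to 1 without a replicate. For GFP+ Tfh over CXCR5-PD1- cells, genes called were 697 as reported, 255 with the 2 groups alone, 314 with 1 weight per group and 348 to 1147 without a replicate, and members called were 2 as reported, 1 with the 2 groups alone, with no filter or with 1 weight per group, 3 with trend and robust moderation or cyclic loess, and 1 to 2 without a replicate. Among the wider list, genes called in that comparison were 11 as reported, 7 with 1 weight per group and 6 with the 2 groups alone. Between the PD1- gates 0 genes were called in every alternative. The replicate block added the call of Rasa1 in GFP- Tfh over CXCR5-PD1- cells (0.59, adjusted p = 0.0411) and changed no other call of a member. In the averaged comparison it ended the call of Sipa1l1 and added those of Dusp5 and Itga4 (adjusted p = 0.0297 and 0.0410). In the alternatives Rasgrp2 differed by -2.61 to -2.36 and Rasa3 by -2.41 to -2.20 between both Tfh and both PD1- gates. No call changed direction, for members in the 5 comparisons or for wider-list genes in the averaged one; for wider-list genes in the other comparisons only counts were computed. Apart from changes that follow from fewer arrays or genes, the cause was not tested.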
